A study of Mus musculus with 12 samples.

Results

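Stromal cells of the mouse small intestine that carry a GFP reporter of Rspo3 were compared with stromal cells of the same tissue that do not. The comparison uses 6 of the 12 libraries of the study: 3 from cells positive and 3 from cells negative for GFP. The other 6 libraries hold the matching sorts from the colon and enter here through the shared estimate of spread and 1 test of the difference between tissues. Every animal carried the Rspo3-GFP transgene on a C57Bl6 background and was 8 to 12 weeks old, and no treatment is named in the labels. Per the series' design text the cells were negative for Epcam, the epithelial surface protein, and for CD45, the pan-leukocyte protein, before the split on GFP. The labels describe neither the construct behind the reporter nor whether animals were pooled, and they do not tie each replicate to an animal of its own. The p-values therefore measure the spread between these libraries, which may in part be technical.

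R-spondins are secreted proteins that amplify Wnt signalling. They bind the receptors LGR4, LGR5 and LGR6 and remove the ubiquitin ligases ZNRF3 and RNF43, which otherwise clear Frizzled Wnt receptors from the cell surface. In the gut wall, fibroblasts under the crypts and lymphatic endothelial cells are known sources of R-spondin 3, and antagonists of BMP such as gremlin come from the same region. Stroma sorted without Epcam and CD45 also holds blood vessels, pericytes, smooth muscle and enteric glia.

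Counts are given as CPM, the usual per-library scaling of counts with TMM correction for library composition, in the order of replicates 1, 2 and 3. A gene was called when its Benjamini-Hochberg adjusted p from edgeR's quasi-likelihood test was under 0.05 over all genes tested, and "rose" and "fell" are used of called genes alone. Differences are log2 values, GFP-positive minus GFP-negative, with the standard error (SE). Library totals ran from 6489835 to 12286054 counts, and no pair of replicates was close enough to be 1 library deposited more than once. The share of mitochondrial rRNA was 9.73% to 12.7% among GFP-negative libraries against 5.35% to 7.92% among GFP-positive ones, and that of protein-coding genes 65.9% to 76.1% against 78.9% to 83.9%. These shares moved with the groups, and their part in the results below was not tested. Fewer cells of a type and less RNA per cell cannot be told apart in such bulk sorts.

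Of 16757 genes tested, 1821 (10.9%) were called, 710 higher (4.24%) and 1111 lower (6.63%) in the GFP-positive cells. All libraries of 1 group lay above those of the other for 3663 genes (21.9%), called or not. Genes are given below in lists, and these shares are the ones to set beside the counts of each list. The lists were chosen with earlier results of these data known, so their counts describe and test nothing. The median log2 difference was -0.03 over all genes tested, 1.49 over the genes called higher and -3.53 over those called lower. The falls were therefore the steeper: 166 of the genes called lower had no count in any GFP-positive library, against 10 of the genes called higher with none in GFP-negative libraries. With the genes at 0 set at the bound that 3 counts allow, the median of the genes called lower was -3.49. Without GFP-negative replicate 2 the number of genes higher was 1199, and in the fit to the 6 small intestinal libraries alone 244 rose and 528 fell. On the deposited log2 TPM values limma called 343 genes higher and 328 lower, a higher share of 51.1% against 39.0%.

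**Figure D1:**
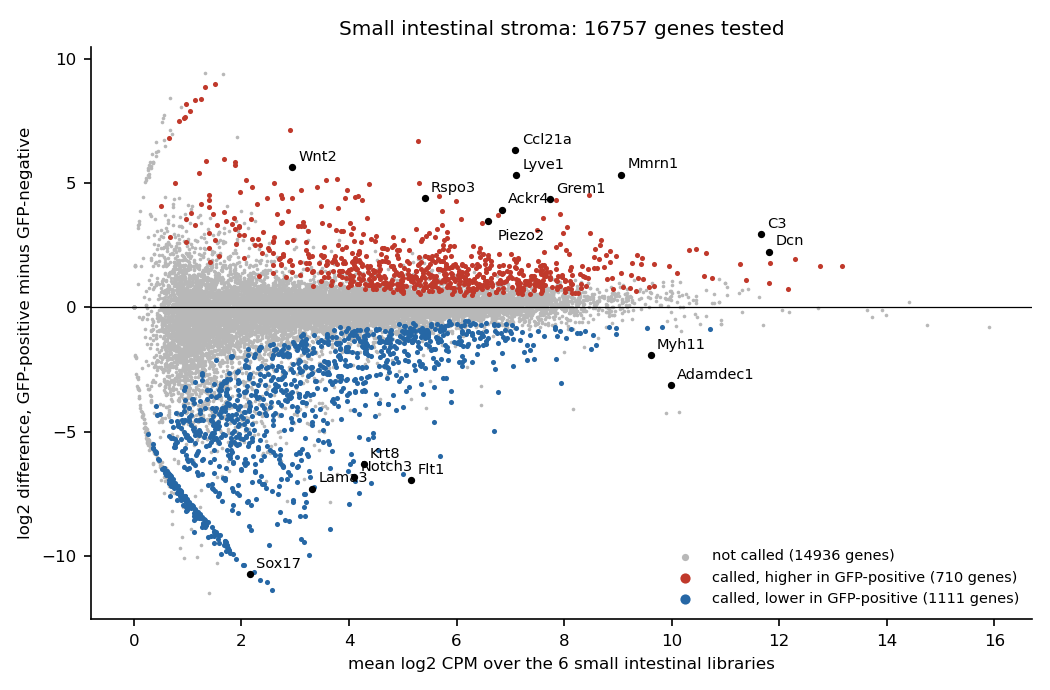
Log2 difference between GFP-positive and GFP-negative libraries (vertical axis) against the mean log2 CPM over the 6 libraries (horizontal axis) for each of the 16757 genes tested, with the 710 genes called higher in red, the 1111 called lower in blue and a few genes named. The fitted difference of a gene without any count in 1 group, such as Sox17, depends on the prior count; the called falls reach further from 0 than the called rises.

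All 3 R-spondin genes measured were higher in the GFP-positive cells. Rspo3 (chromosome 10, 29452416 to 29535867 on the minus strand, GRCm38) measured 8.78, 13.7 and 4.50 CPM in the GFP-negative and 196, 191 and 192 CPM in the GFP-positive libraries. The GFP-positive replicates lay within a few CPM of each other and far above the GFP-negative ones (log2 4.40 ± 0.42, n = 3 per group, adjusted p = 0.000174), which checks the labels of a sort made on a reporter of this gene. Rspo1 measured 2.65, 1.57 and 3.54 CPM against 16.2, 12.9 and 21.4 CPM and Rspo2 4.69, 7.83 and 1.93 CPM against 38.1, 23.6 and 62.0 CPM, without overlap between the groups. Their differences were 2.71 ± 0.49 (adjusted p = 0.00385) and 3.08 ± 0.60 (adjusted p = 0.00623). On the receiving side 1 of the 4 genes tested was called (median -0.82). Lgr4, a receptor of R-spondins, fell from 34.9, 24.8 and 27.0 CPM to 12.48, 12.8 and 10.6 CPM (-1.27 ± 0.28, adjusted p = 0.0109). The ubiquitin ligase gene Znrf3 overlapped between the groups (12.26, 4.18 and 24.9 CPM against 12.6, 5.81 and 13.6 CPM, adjusted p = 0.750), and the ligase gene Rnf43 and the receptor gene Lgr5 were not called either (adjusted p = 0.107 and 0.243).

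Wnt ligands rose more often than they fell: 5 of the 10 tested were higher and 1 lower, with a median log2 difference of 1.47. Wnt2, a ligand of the canonical pathway, stood near the detection limit in GFP-negative cells and varied widely in GFP-positive cells, with 0.842, 0.940 and 0.643 CPM against 33.8, 80.4 and 11.6 CPM (5.65 ± 0.65, adjusted p = 0.000356). Wnt9a was even across its replicates, at 5.77, 8.25 and 4.02 CPM against 18.2, 22.1 and 20.4 CPM (1.74 ± 0.40, adjusted p = 0.0145). Wnt2b measured 69.9, 219 and 74.3 CPM against 277, 301 and 441 CPM (adjusted p = 0.0261). Wnt4 went the other way, from 16.7, 37.6 and 14.8 CPM to 4.83, 5.91 and 4.61 CPM (-2.17 ± 0.34, adjusted p = 0.00166). Wnt5a, a ligand of non-canonical signalling, overlapped between the groups (29.7, 41.8 and 30.7 CPM against 37.1, 24.4 and 53.5 CPM). The count of ligands higher was 3 without any 1 library other than GFP-positive replicate 1. Wnt2b was not called without GFP-negative replicates 1 or 3 or GFP-positive replicate 3 (adjusted p = 0.0756, 0.0755 and 0.0871), or without GFP-positive replicate 2 (0.0525). Wnt9b was low (0.240, 0 and 0 CPM against 3.49, 11.2 and 2.72 CPM) and was not called without replicate 2 of either sort or GFP-negative replicate 3 (0.0518, 0.0889 and 0.0649). Wnt10b was lower still (0, 0 and 0.161 CPM against 1.33, 0.296 and 1.30 CPM), and its call ended with a replicate block (adjusted p = 0.0727) and without replicate 1 of either sort, GFP-negative replicate 2 or GFP-positive replicate 3 (up to 0.115).

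Frizzled and Lrp receptors were called in 3 of 13 cases, each higher (median 0.41). Fzd7, a Frizzled receptor, rose from 32.3, 41.8 and 19.3 CPM to 75.5, 87.7 and 153 CPM and Lrp6, the Wnt co-receptor, from 188, 167 and 179.6 CPM to 397, 292 and 449 CPM. Their differences were 1.75 ± 0.32 and 1.09 ± 0.20 (adjusted p = 0.00363 and 0.00352). Lrp6 was not called in the fit to the 6 small intestinal libraries (adjusted p = 0.0611) nor with limma on the log2 TPM (0.311). Ror1, a receptor kinase of Wnt5a, was the third, and its call ended with a replicate block (adjusted p = 0.0618) and without GFP-negative replicates 1 or 3 or either of GFP-positive replicates 1 and 3 (0.0925, 0.0849, 0.0585 and 0.110). Without GFP-negative replicate 2, the GFP-negative library with the highest fibroblast sum (below), 6 receptors were higher. Secreted Wnt antagonists split, 1 of 9 higher and 2 lower (median -1.61). Sostdc1, an inhibitor of Wnt and BMP ligands, was present in every GFP-negative library at 16.1, 12.1 and 7.56 CPM and had a count in 1 GFP-positive library (0, 0 and 0.118 CPM, adjusted p = 0.000413). Sfrp5, a decoy for Wnt, measured 11.8, 9.50 and 6.91 CPM against 0, 0.690 and 0 CPM (adjusted p = 0.0313), a call that ended without GFP-negative replicate 1, GFP-positive replicate 1 or GFP-positive replicate 3 (0.0660, 0.0850 and 0.0841). Dkk2, an antagonist at LRP co-receptors, measured 25.2, 42.1 and 6.91 CPM against 119.6, 72.9 and 123 CPM (adjusted p = 0.0350, 0.0634 with a replicate block) and was not called without GFP-negative replicate 1, GFP-positive replicate 1 or GFP-positive replicate 3 (0.0962, 0.0890 and 0.0868). The list therefore had no rise and 1 fall without any of those 3 libraries, and 2 rises without GFP-negative replicate 2. Sfrp1, also a decoy, overlapped at 543, 1383 and 648 CPM against 1725, 1162 and 2287 CPM.

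Among BMP antagonists 2 of 12 were called, both higher (16.7% called, against 10.9% of all genes tested, median 0.58). Grem1 measured 43.6, 76.4 and 31.4 CPM in the negative and 1033, 538 and 1534 CPM in the positive libraries. The lowest GFP-positive library, replicate 2, still held several times the highest GFP-negative value, and the difference was 4.35 ± 0.42 (adjusted p = 0.000146). The 10 antagonists not called ran from -2.15 (Chrdl2) to 1.54 (Fst), without a call. Chrdl1, a chordin-like antagonist, was higher in every GFP-positive library (7.94, 15.8 and 6.91 CPM against 20.2, 16.5 and 35.3 CPM, adjusted p = 0.0802), as was the activin antagonist gene Fst (6.13, 4.28 and 5.15 CPM against 16.6, 9.36 and 19.3 CPM, adjusted p = 0.159). Such a separation, in either direction, was seen in 21.9% of all genes tested. Fstl1, Nbl1, Twsg1, Fstl3, Chrd and Bmper overlapped between the groups, Chrd with an adjusted p of 0.0335 under the replicate block, and Nog and Chrdl2 had few counts, none in some libraries. The number of antagonists higher was 7 without GFP-negative replicate 2, and 1, Grem1, without GFP-negative replicate 1 or GFP-positive replicates 1 or 3. Of the BMP ligand list 1 of 9 was called (11.1%, against 10.9% of all genes tested), Bmp1, which encodes a procollagen protease (1.05 ± 0.25, adjusted p = 0.0162, 0.0549 without GFP-negative replicate 1 and 0.0502 without GFP-positive replicate 3). Bmp4 measured 94.3, 195 and 126 CPM against 94.7, 76.8 and 140.4 CPM and Bmp5 50.4, 124 and 63.2 CPM against 19.5, 15.7 and 58.6 CPM, and neither was called (adjusted p = 0.4005 and 0.0823). Without GFP-positive replicate 3, 2 BMP ligands were lower.

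**Figure D2:**
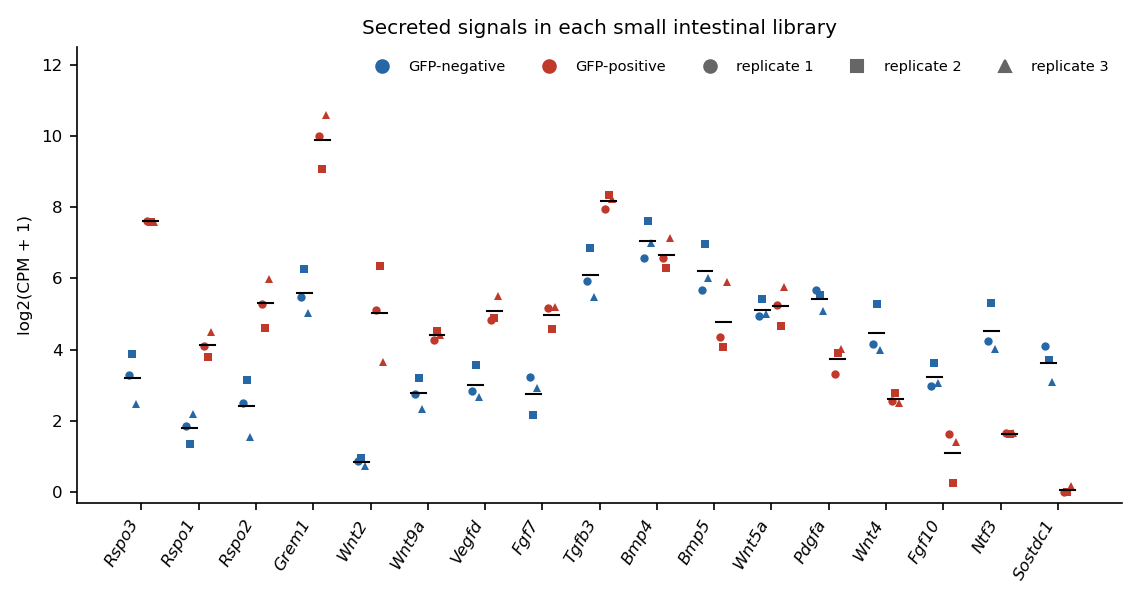
Secreted signals in the 6 small intestinal libraries as log2(CPM + 1) (vertical axis), with GFP-negative libraries in blue, GFP-positive libraries in red, a symbol for each replicate number and a bar at the mean of 3. Rspo3, Grem1, Tgfb3 and Vegfd separate upwards, Wnt4, Ntf3 and Sostdc1 downwards, and Bmp4 and Wnt5a overlap.

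In the TGF-beta family 2 of 14 genes rose (14.3% called, against 10.9% of all genes tested, median 0.12). Tgfb3, a TGF-beta ligand, measured 59.9, 115 and 43.7 CPM against 246, 326 and 300.5 CPM (1.995 ± 0.32, adjusted p = 0.00204). Tgfbr3, the co-receptor betaglycan, measured 302, 376 and 235 CPM against 728, 480.2 and 799.8 CPM (1.14 ± 0.23, adjusted p = 0.00675). The count was 5 without GFP-negative replicate 2 and 5 with a replicate block, and 2 members were lower without GFP-positive replicate 3 and 1 with the block. PDGF genes moved apart, 1 of 7 higher and 2 lower. Pdgfb, the ligand by which endothelium recruits pericytes, fell from 48.5, 35.6 and 18.3 CPM to 1.33, 3.55 and 0.354 CPM and Pdgfa from 49.8, 45.4 and 33.1 CPM to 8.90, 13.99 and 15.2 CPM, by 4.27 ± 0.67 and 1.75 ± 0.27 on the log2 scale (adjusted p = 0.00193 and 0.00160). Pdgfrl, a receptor-like gene, rose to 10.5, 12.7 and 13.3 CPM from 2.65, 2.51 and 0.643 CPM (adjusted p = 0.0155), and 3 members were higher without GFP-negative replicate 2. The receptor genes Pdgfra (469, 940.4 and 410.5 CPM against 835, 648 and 1291 CPM) and Pdgfrb (184, 409.7 and 117 CPM against 156, 122 and 182 CPM) overlapped.

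FGF ligands changed in opposite directions, and 2 of 12 FGF genes rose and 3 fell. Fgf7, the keratinocyte growth factor, rose from 8.30, 3.45 and 6.59 CPM to 34.9, 22.8 and 35.8 CPM (2.35 ± 0.32, adjusted p = 0.000705), while Fgf10, which acts on the same epithelial receptor, fell from 6.85, 11.4 and 7.396 CPM to 2.08, 0.197 and 1.65 CPM (-2.69 ± 0.52, adjusted p = 0.00555). The receptors Fgfr2 and Fgfr4 fell by 1.81 ± 0.30 and 3.50 ± 0.81 (adjusted p = 0.00234 and 0.0149). Fgfr1 was called higher by 0.75 ± 0.22 (adjusted p = 0.0435) but not with a replicate block (0.0731) nor without GFP-negative replicates 1 or 3 or GFP-positive replicates 1 or 3 (0.107, 0.129, 0.0702 and 0.151), so that in those fits 1 FGF gene was higher. In the IGF system 2 of 10 genes rose (20.0% called, against 10.9% of all genes tested, median 0.17), or 5 without GFP-negative replicate 2. Igfbp6, which binds IGF2, measured 29.5, 26.5 and 44.7 CPM against 86.2, 91.5 and 123 CPM, and the receptor Igf2r was even within each group at 164, 159.6 and 173 CPM against 294, 288 and 287 CPM. These differences were 1.58 ± 0.22 and 0.81 ± 0.14 (adjusted p = 0.000965 and 0.00346), and 1 gene of the list was lower without GFP-negative replicate 3 or with a replicate block.

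The VEGF receptors parted by vessel type. Flt4 (VEGFR3), the receptor of lymphatic endothelium, measured 104, 52.3 and 24.4 CPM in the negative and 1191, 2027 and 433 CPM in the positive libraries (4.34 ± 0.73, adjusted p = 0.00352). Flt1 (VEGFR1), a receptor of blood vessels, measured 609, 353 and 177 CPM against 1.16, 5.32 and 2.83 CPM (-6.94 ± 0.78, adjusted p = 0.000549). Kdr (VEGFR2), which both kinds of endothelium carry, overlapped at 387, 239 and 114 CPM against 586, 687 and 234 CPM. The neuropilins followed the same division: Nrp2, a co-receptor in lymphatic vessels, rose from 234, 222 and 123 CPM to 871, 1041 and 481 CPM (2.05 ± 0.31, adjusted p = 0.00136), and Nrp1 fell from 259.8, 222 and 166 CPM to 131, 65.6 and 128 CPM (-0.998 ± 0.25, adjusted p = 0.0212, 0.0665 without GFP-negative replicate 1). Vegfd, a ligand of VEGFR3, rose from 6.13, 10.8 and 5.31 CPM to 27.5, 28.8 and 44.8 CPM (2.17 ± 0.35, adjusted p = 0.00183). Vegfa, the main ligand of blood vessels, overlapped at 100.4, 55.1 and 87.0 CPM against 65.4, 45.8 and 39.8 CPM (adjusted p = 0.144; named after its values were seen). Angptl1, an angiopoietin-like gene, rose from 28.5, 79.8 and 44.1 CPM to 189.5, 139 and 273 CPM (1.98 ± 0.42, adjusted p = 0.0109). In all 7 of the 17 genes of this family rose and 2 fell (median 1.27), with 4 rises without GFP-negative replicate 3 and 1 fall without GFP-negative replicate 1. Angpt1, a ligand of the Tie2 receptor, rose from 15.6, 8.15 and 6.27 CPM to 29.5, 19.3 and 39.3 CPM, but was not called without replicate 3 of the GFP-negative or the GFP-positive sort (adjusted p = 0.0528 and 0.0665). Angpt2, which acts on the same receptor, measured 18.4, 18.0 and 11.6 CPM against 89.8, 84.5 and 18.9 CPM and was not called without replicate 1 of either sort, GFP-negative replicate 3 or GFP-positive replicate 2 (0.0562, 0.0749, 0.0697 and 0.0737).

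In the Notch list all genes called were lower, and of the hedgehog list 2 genes were lower and 1 higher (25.0% and 20.0% called, against 10.9% of all genes tested). Dtx1, a Notch pathway gene outside the list, rose (5.001 ± 0.62, given below). Notch3, the Notch receptor of mural cells, measured 176, 235 and 49.8 CPM against 1.83, 1.28 and 0.827 CPM (-6.82 ± 0.78, adjusted p = 0.000553). The ligand Jag1 fell from 154, 91.6 and 38.9 CPM to 13.6, 23.8 and 12.2 CPM (-2.52 ± 0.41, adjusted p = 0.00237) and the arterial target Hey2 from 42.3, 20.9 and 5.95 CPM to 1.41, 2.46 and 0.591 CPM (-3.93 ± 0.80, adjusted p = 0.00743). These were the 3 of 12 Notch genes called (median -1.01), and without GFP-negative replicate 3 there were 7 lower and 1 higher. With limma on the log2 TPM 1 was lower, as Jag1 and Hey2 lost their calls (adjusted p = 0.178 and 0.0913). Notch1 and Hes1 overlapped between the groups, Hes1 with an adjusted p of 0.0182 under the replicate block, the 1 Notch gene higher there. In the hedgehog list the ligand genes Ihh and Dhh were lower, and neither was called with limma on the log2 TPM (adjusted p = 0.178 and 0.0509). Ihh, the ligand of intestinal epithelium, had 7.69, 2.92 and 2.89 CPM in GFP-negative libraries and no count in GFP-positive ones, at least 46.6-fold lower (adjusted p = 0.00253), and Dhh, a ligand of glia and endothelium, measured 11.1, 7.62 and 3.70 CPM against 0.333, 0 and 0.118 CPM (adjusted p = 0.0131). Boc, a hedgehog co-receptor, rose from 27.5, 41.4 and 32.6 CPM to 95.5, 91.7 and 146 CPM (1.71 ± 0.25, adjusted p = 0.00103), 1 of 15 hedgehog genes higher, or 3 without GFP-negative replicate 2. The receptor and target Ptch1 was lower in every GFP-positive library but not called (245, 341 and 219 CPM against 173, 117 and 205 CPM, adjusted p = 0.106), and the mesenchymal factor gene Foxf1 overlapped. A separation like that of Ptch1, in either direction, was seen in 21.9% of all genes tested. The epithelial and glial sums, given below, were lower in every GFP-positive library. Those of the blood endothelial list (3796, 2717 and 1076 CPM against 1269, 2642 and 589 CPM) and the pericyte list (1127, 2015 and 603 CPM against 628, 502 and 712 CPM) overlapped. These sums hold Aqp1, a blood endothelial member that rose, and Rgs5, a pericyte member that overlapped (values below). By gene, 11 of 17 blood endothelial members fell and 2 rose, and 5 of 10 pericyte members fell and none rose. The part of epithelial, glial, blood endothelial and pericyte transcripts in the Notch and hedgehog falls was not tested.

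Markers of lymphatic endothelium were higher in the GFP-positive cells. Of 20 such genes, all tested, 14 rose and none fell, against 4.24% and 6.63% of all genes tested, and the median log2 difference was 2.92. The list was chosen with earlier results of these data known, so this contrast with all genes is a description and not a test. Prox1, the transcription factor that defines lymphatic identity, measured 33.3, 10.4 and 5.15 CPM in the negative and 360.1, 259 and 99.6 CPM in the positive libraries (3.87 ± 0.68, adjusted p = 0.00475). Lyve1, the hyaluronan receptor, measured 51.9, 21.2 and 6.27 CPM against 1261, 1548 and 422 CPM (5.34 ± 0.78, adjusted p = 0.00168). Mmrn1, a secreted multimerin, measured 191, 92.7 and 24.4 CPM against 4779, 6047 and 1757 CPM (5.35 ± 0.83, adjusted p = 0.00220). Within the GFP-positive sort all 3 were highest in replicate 1 or 2 and lowest in replicate 3. Reln, a secreted glycoprotein of lymphatic collecting vessels, was likewise lowest in replicate 3, at 124, 47.7 and 68.7 CPM against 2144, 2467 and 858 CPM (4.51 ± 0.56, adjusted p = 0.000589). Ccl21a, the chemokine that draws dendritic cells to lymphatics, measured 38.7, 7.62 and 8.36 CPM against 1385, 2469 and 593 CPM (6.34 ± 0.86, adjusted p = 0.00121), though reads of its near-identical paralogs could be split or shared by the counting. The scavenger receptor gene Stab1 rose from 100.03, 37.6 and 54.5 CPM to 737, 1339 and 254 CPM (3.5998 ± 0.57, adjusted p = 0.00221).

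Several other members of the lymphatic list rose by smaller amounts. The transcription factor gene Maf rose by 2.16 ± 0.29, the integrin gene Itga9 by 1.25 ± 0.21, Fgl2 by 2.54 ± 0.32 and Thy1 by 2.73 ± 0.49 (adjusted p = 0.000630, 0.00267, 0.000549 and 0.00458). Thy1, a surface glycoprotein also of fibroblasts, measured 7.69, 8.67 and 24.3 CPM against 85.5, 139.9 and 41.3 CPM. Nr2f2 (COUP-TFII), a factor of venous and lymphatic endothelium, measured 106, 100.2 and 50.2 CPM against 190.2, 226 and 110.2 CPM (adjusted p = 0.0399), and was not called without GFP-negative replicate 3 or GFP-positive replicates 1 or 2 (0.0945, 0.104 and 0.146). Pdpn, Foxc2, Gata2, Cd9, Nts and Stab2 were not called, and of these Stab2 (2.52, 0 and 8.68 CPM against 46.5, 38.0 and 9.21 CPM) and Nts (2.28, 0.418 and 0 CPM against 8.49, 6.504 and 2.48 CPM) did not overlap between the groups. Nor did 21.9% of all genes tested. Under the replicate block Nts and Pdpn were called (adjusted p = 0.0480 and 0.0268). The semaphorins Sema3a and Sema3d, counted here and among guidance genes, rose by more (4.44 and 3.30), from 5.65, 3.97 and 0.965 CPM to 95.9, 99.9 and 41.2 CPM and from 27.1, 12.8 and 10.9 CPM to 197, 156 and 149.5 CPM.

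Blood endothelial markers moved the other way: 11 of 17 markers fell and 2 rose, with a median of -2.97. Flt1 (given above), Vwf and Selp were among the falls. Vwf, the clotting factor stored in endothelial granules, measured 549.6, 350.3 and 120.1 CPM against 1.16, 6.60 and 1.89 CPM, and Selp, the P-selectin of venules, 693, 421 and 206 CPM against 3.66, 13.2 and 3.90 CPM. Their differences were -6.72 ± 0.86 and -5.99 ± 0.88 (adjusted p = 0.00108 and 0.00218). Plvap, the diaphragm protein of fenestrated capillaries, fell from 857, 840.5 and 218 CPM to 25.7, 23.8 and 10.6 CPM (-4.99 ± 0.79, adjusted p = 0.00315). Sox17, an arterial transcription factor, had 38.0, 29.9 and 5.63 CPM in GFP-negative libraries and no count in GFP-positive ones, at least 269.8-fold lower (adjusted p = 0.00470). Cd36, a fatty acid receptor of capillaries, fell from 219, 152 and 80.1 CPM to 20.6, 19.7 and 9.10 CPM (adjusted p = 0.00270). The members that rose were Gpihbp1, the lipoprotein lipase carrier of capillaries (10.6, 4.91 and 6.27 CPM against 45.4, 103 and 19.02 CPM, adjusted p = 0.00786), and Aqp1, a water channel (109.5, 91.0 and 32.6 CPM against 882, 1905 and 350.1 CPM, adjusted p = 0.00470). Sele, the endothelial selectin, had a call (-6.98) that ended without GFP-positive replicate 2 (adjusted p = 0.0558).

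Markers that blood and lymphatic vessels share were mostly not called. Of 15 such genes 1 fell and none rose (6.67% called, against 10.9% of all genes tested), and the median was 0.75. Pecam1, which encodes CD31, measured 539.6, 362 and 172 CPM against 291, 451 and 132 CPM and Cdh5, VE-cadherin, 407, 309 and 119 CPM against 371, 585 and 159 CPM, both overlapping (adjusted p = 0.806 and 0.739). Esam, an endothelial junction protein, was the exception at 97.9, 74.9 and 32.2 CPM against 2.33, 6.11 and 0.472 CPM (-4.50 ± 0.76, adjusted p = 0.00355). The summed CPM of the shared list was 2864, 2148 and 919 in the negative and 2805, 4338 and 1246 in the positive libraries, while that of the lymphatic list was 1267, 861 and 739 against 14015, 18496 and 5711. In both sorts replicate 3 had the lowest sum of either list. With a replicate block 3 shared markers were called higher, and 1 without GFP-positive replicate 3.

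To set genes that went up beside genes that went down, the 250 bases before the start sites of 2 endothelial genes that rose and 2 that fell are printed from RefSeq (GRCm38.p6), 5′ to 3′ on the gene's strand, with the ETS core AGGAAG on either strand in capitals. ETS factors are transcription factors common to endothelial genes of both vessel types.
Stab1, higher, chr14:31168642-31168891, minus strand: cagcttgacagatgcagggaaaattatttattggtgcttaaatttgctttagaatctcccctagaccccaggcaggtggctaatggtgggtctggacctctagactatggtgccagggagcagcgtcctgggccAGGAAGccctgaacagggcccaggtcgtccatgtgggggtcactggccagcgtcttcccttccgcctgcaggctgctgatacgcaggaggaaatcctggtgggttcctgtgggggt
Aqp1, higher, chr6:55336049-55336298, plus strand: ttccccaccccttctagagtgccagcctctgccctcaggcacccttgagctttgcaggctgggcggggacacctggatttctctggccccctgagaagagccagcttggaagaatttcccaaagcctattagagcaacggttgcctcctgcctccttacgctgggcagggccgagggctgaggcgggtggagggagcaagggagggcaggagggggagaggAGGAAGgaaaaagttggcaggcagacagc
Flt1, lower, chr5:147726012-147726261, minus strand: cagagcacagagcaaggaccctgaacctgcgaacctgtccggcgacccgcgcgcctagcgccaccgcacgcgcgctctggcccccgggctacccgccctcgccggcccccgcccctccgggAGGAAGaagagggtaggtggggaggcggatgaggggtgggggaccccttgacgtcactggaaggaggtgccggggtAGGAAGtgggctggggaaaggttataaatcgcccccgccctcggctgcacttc
Selp, lower, chr1:164115014-164115263, plus strand: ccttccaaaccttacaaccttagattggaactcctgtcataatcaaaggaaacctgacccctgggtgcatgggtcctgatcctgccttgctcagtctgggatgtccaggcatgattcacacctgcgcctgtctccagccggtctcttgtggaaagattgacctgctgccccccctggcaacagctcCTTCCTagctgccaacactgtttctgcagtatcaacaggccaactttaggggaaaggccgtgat
Windows of 250 bases before to 50 after the start were found for 16 of 20 lymphatic, 11 of 17 blood and 9 of 15 shared endothelial genes. The core was in 7 of the 16 (43.8%), 7 of the 11 (63.6%) and 6 of the 9 (66.7%), beside 38.4% of 27025 genes in the table and 35.4% of 32851 windows. The printed genes were taken from those whose windows held the core, so its presence before these rises and falls was set by that choice. Each is a match of letters and not a measured binding site. For smooth muscle, windows were found for 10 of 14 genes. The ETS core was in 2 of these 10 genes (20.0%), and the CArG box, the serum response element, in none of them and in 1.81% of all genes. Sequence outside the windows was not searched.

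Fibroblast markers were also higher. Of 14 genes that mark fibroblasts in general, 10 rose without any fall, with a median of 1.71. Dcn, the collagen-binding proteoglycan decorin, measured 1107, 2833 and 1299.8 CPM in the negative and 7023, 6891 and 10914 CPM in the positive libraries (2.24 ± 0.36, adjusted p = 0.00177). Lum, lumican, measured 95.6, 268 and 144 CPM against 939, 879 and 1547 CPM (2.73 ± 0.37, adjusted p = 0.000669). In these and in Fbln1, a matrix fibulin (319.6, 1377 and 393 CPM against 2756, 3604 and 4459.5 CPM, 2.37 ± 0.46), GFP-negative replicate 2 was the highest of its sort and GFP-positive replicate 3 the highest of all. The summed CPM of the list had the same order, 9353, 27017 and 10997 against 44816, 48741 and 68726. Replicate 3 of the GFP-positive sort therefore held the lowest lymphatic and the highest fibroblast sum, while Rspo3 itself was 196, 191 and 192 CPM across the 3 GFP-positive libraries. Pdgfra, Fbln2 and Mfap4 overlapped between the sorts, and the fit to the 6 small intestinal libraries alone left 3 of the list's rises.

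**Figure D3:**
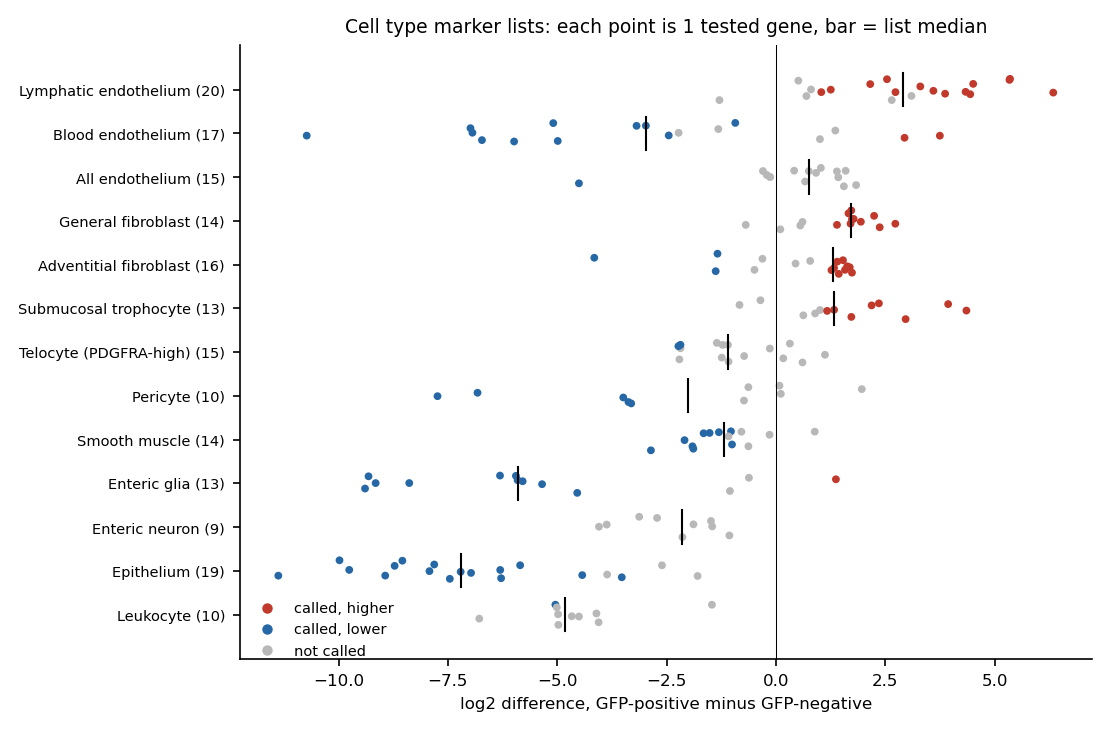
Log2 difference (horizontal axis, GFP-positive minus GFP-negative) of every tested gene in 13 cell type marker lists, with the number tested in brackets; red points were called higher, blue lower, grey not called, the bar is the list median and the vertical spread is for legibility. Lymphatic endothelium and fibroblast medians lie right of 0 and those of blood endothelium, pericytes, glia and epithelium left of it; fitted values of genes at 0 in 1 group depend on the prior count.

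Submucosal trophocytes are fibroblasts below the crypts. Ackr4, the chemokine-scavenging receptor that marks them, measured 24.5, 43.6 and 21.2 CPM in the negative and 374, 428 and 571 CPM in the positive libraries (3.94 ± 0.28, adjusted p = 2.36e-05). Of the list 8 of 13 rose and none fell, with a median of 1.33. Il33, an alarmin cytokine, rose from 47.6, 86.7 and 60.3 CPM to 238, 224 and 182 CPM (1.72 ± 0.29, adjusted p = 0.00267) and Col14a1, a fibril-associated collagen, from 612, 1015 and 666 CPM to 3127, 2812 and 4506 CPM (2.19 ± 0.28, adjusted p = 0.000553). The marker list also holds Grem1, C3 and Fgf7, given elsewhere. Cd34, a surface protein of perivascular and trophocyte fibroblasts, rose by 1.33 ± 0.28 (adjusted p = 0.00855; named after its values were seen). The tetraspanin gene Cd81 was higher in every GFP-positive library without a call (adjusted p = 0.0516), and 21.9% of all genes tested separated in 1 direction or the other. In the list 1 gene was lower without GFP-positive replicate 2 or with a replicate block.

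Adventitial fibroblast markers were mixed, with 9 of 16 higher and 3 lower (median 1.30). In the fit to the 6 small intestinal libraries alone the rises numbered 1 and the falls 1, and with limma on the log2 TPM 5 and 0. Gsn, gelsolin, rose from 2765, 5967 and 3316 CPM to 12204, 10051 and 16539 CPM and Dpt, dermatopontin, from 286, 749 and 387 CPM to 1247, 1360.1 and 2137 CPM. Their differences were 1.69 ± 0.32 and 1.74 ± 0.35, and Cd248, endosialin, rose by 1.63 ± 0.34 (adjusted p = 0.00488, 0.00673 and 0.00839). Dpp4, a peptidase of the adventitial layer, fell from 23.3, 9.92 and 60.6 CPM to 1.66, 0.887 and 2.72 CPM (-4.15 ± 0.65, adjusted p = 0.00192). Its order among the GFP-negative libraries was that of the epithelial sums (below), and the part of epithelial transcripts in its fall was not tested. Ly6c1 and Anxa3 were the other falls, and both lost their calls without GFP-positive replicate 1 (0.0810 and 0.0517) or 2 (0.0802 and 0.0565), Ly6c1 also without GFP-negative replicate 1 (0.0709) and with a replicate block (0.0979). Telocytes are PDGFRA-high cells below the villus epithelium. None of 15 of their markers rose and 2 fell (13.3% called, against 10.9% of all genes tested), with a median of -1.10. Those were Cxcl14, a chemokine (60.4, 88.9 and 44.1 CPM against 20.2, 4.53 and 16.4 CPM, adjusted p = 0.00674), and Col6a5, a collagen VI chain (153, 339 and 188 CPM against 58.8, 32.1 and 58.7 CPM, adjusted p = 0.00618). The count of telocyte genes lower was 4 without GFP-negative replicate 3, 5 without GFP-positive replicate 3 and 4 with a replicate block, and 2 were higher without GFP-negative replicate 2 and 1 without GFP-positive replicate 2.

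Mural cell markers fell in part. Of 10 pericyte genes tested 5 fell and none rose (median -2.02), and of 14 smooth muscle genes 9 fell and none rose (median -1.20). Cspg4, the NG2 proteoglycan of pericytes, measured 151, 324 and 115 CPM against 19.2, 17.7 and 20.0 CPM (-3.37 ± 0.35, adjusted p = 0.000201), and Mcam, an adhesion protein of vessel walls, 213, 149.9 and 63.7 CPM against 14.6, 13.6 and 9.69 CPM (-3.49 ± 0.42, adjusted p = 0.000517). Cox4i2, a cytochrome oxidase subunit, had 3.25, 4.80 and 1.13 CPM in GFP-negative libraries and no count in the others, at least 33.9-fold lower. Rgs5, a pericyte gene by common use, overlapped at 309, 690.4 and 178 CPM against 252, 116 and 341 CPM, as did Pdgfrb. Myh11, the smooth muscle myosin, fell from 1879.5, 2022 and 811 CPM to 429.9, 458 and 368 CPM and Acta2, smooth muscle actin, from 549.6, 1077 and 388 CPM to 169, 226 and 245 CPM. These differences were -1.91 ± 0.31 and -1.65 ± 0.33 (adjusted p = 0.00187 and 0.00684), so that both remained well detected in the GFP-positive cells. Myocd, the master regulator of the contractile program, fell from 36.1, 53.3 and 21.1 CPM to 4.99, 7.10 and 3.07 CPM (-2.86 ± 0.51, adjusted p = 0.00378). The number of smooth muscle genes lower was 4 without GFP-positive replicate 1, 3 in the fit to the 6 small intestinal libraries and 2 with limma, and 2 pericyte genes and 1 smooth muscle gene were higher without GFP-negative replicate 2, 1 smooth muscle gene without GFP-positive replicate 3 and 1 of each with a replicate block. Among 7 genes listed for interstitial cells of Cajal, the channel gene Cacna1h fell (below) and the kinase gene Prkcq rose from 4.45, 3.24 and 4.18 CPM to 82.8, 122 and 36.3 CPM (4.34 ± 0.41, adjusted p = 0.000146). The chloride channel gene Ano1 was called lower (32.5, 34.5 and 9.97 CPM against 5.99, 3.06 and 7.80 CPM), but not with a replicate block (adjusted p = 0.0796) nor without replicate 1 or 2 of either sort (0.0669, 0.0695, 0.0518 and 0.0834). Kit, the defining receptor of those cells, was not called (9.02, 3.97 and 57.4 CPM against 6.16, 4.43 and 4.49 CPM).

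Enteric glial genes were low in the GFP-positive libraries. Of 13 glial genes 10 fell and 1 rose, with a median of -5.91. Gfap, the glial filament, measured 80.3, 23.0 and 31.4 CPM against 0.0832, 1.68 and 0.472 CPM and fell by 5.91 ± 0.78 (adjusted p = 0.000789). Kcna1, a potassium channel, fell from 107, 58.9 and 47.0 CPM to 0.166, 0.0985 and 0 CPM, and the glial cadherin Cdh19 from 156, 39.7 and 48.7 CPM to 0, 0.690 and 0 CPM. Gfra3, a receptor for artemin, had no count in GFP-positive cells, at least 83.0-fold lower. Entpd2, a nucleotidase, was the member that rose (34.0, 43.7 and 33.3 CPM against 70.0, 85.6 and 132 CPM, adjusted p = 0.00337). No enteric neuron marker of 9 was called, each with a fitted value below 0 (median -2.14). In other fits 2 were lower without GFP-positive replicate 1, without GFP-negative replicate 3 or with a replicate block, and 1 without GFP-negative replicate 2.

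Neurotrophic ligands and receptors shifted with 3 of 12 higher and 5 lower (median -1.48). Ntf3, neurotrophin 3, fell from 17.8, 38.4 and 15.1 CPM to 2.16, 2.07 and 2.13 CPM, with GFP-positive replicates nearly equal (-3.48 ± 0.40, adjusted p = 0.000370). Ntrk2, the receptor of BDNF, rose from 6.37, 4.18 and 3.54 CPM to 48.6, 26.9 and 43.6 CPM (3.07 ± 0.57, adjusted p = 0.00463), and Gfra2, the neurturin receptor, fell from 53.4, 42.4 and 46.3 CPM to 13.2, 5.22 and 17.7 CPM (-1.98 ± 0.41, adjusted p = 0.00786). Gdnf and Gfra1, a ligand and its receptor, were called lower. Gdnf lost its call with a replicate block (adjusted p = 0.0909) or without replicate 1 or 2 of either sort (up to 0.132), and Gfra1 without GFP-negative replicate 1 or GFP-positive replicate 3 (0.0832 and 0.110). Ntrk3, called higher, held its call without GFP-negative replicate 1, but in no other fit without a library (up to 0.121) nor with a replicate block (0.100). Without GFP-negative replicate 1 or GFP-positive replicate 2 the list had 3 falls. Several of these receptors are also glial, and the summed glial list stood at 809, 441 and 420.0 CPM in the negative and 129, 131 and 235 CPM in the positive libraries, whose part in these differences was not tested.

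Epithelial transcripts remained in the GFP-negative sort despite the Epcam gate. Of 19 epithelial genes 16 fell and none rose, and all 19 had counts in each GFP-negative library. Their summed CPM was 1571, 480.0 and 1719 in the negative and 16.1, 27.5 and 22.6 in the positive libraries. The median log2 difference was -7.21, or -6.97 with the 2 genes at 0 placed at their bounds. Epcam itself measured 43.3, 18.5 and 90.5 CPM against 0, 2.17 and 0.472 CPM (-5.85 ± 1.24, adjusted p = 0.0158, 0.0607 without GFP-positive replicate 3). Apoa1, an apolipoprotein of absorptive cells, measured 191, 75.1 and 244 CPM against 0.749, 0.493 and 0.827 CPM (-7.92 ± 1.17, adjusted p = 0.00238). Leukocyte genes were high in 1 library. Ptprc, which encodes CD45, measured 6.73, 1.78 and 304 CPM in the negative and 0.0832, 0 and 10.2 CPM in the positive libraries (adjusted p = 0.187, 0.000467 with a replicate block), and Jchain, the joining chain of secreted antibodies, 161, 144 and 8669 CPM against 56.7, 154 and 312 CPM. For both genes GFP-negative replicate 3 stood far above the other 5 libraries, and GFP-positive replicate 3 was the highest of its sort. Of 10 leukocyte genes tested 1 was called lower (median -4.82), Cd79a, a B cell receptor chain (3.61, 1.36 and 91.3 CPM against 0.832, 0.985 and 1.06 CPM, adjusted p = 0.0328). It was not called without GFP-negative replicate 3 (0.393), without any 1 GFP-positive library (up to 0.111) or with a replicate block (0.136). The count of leukocyte genes lower was 0 without GFP-negative replicate 3 or any 1 GFP-positive library, 2 and 3 without GFP-negative replicates 1 and 2, and 4 with a replicate block.

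**Figure D4:**
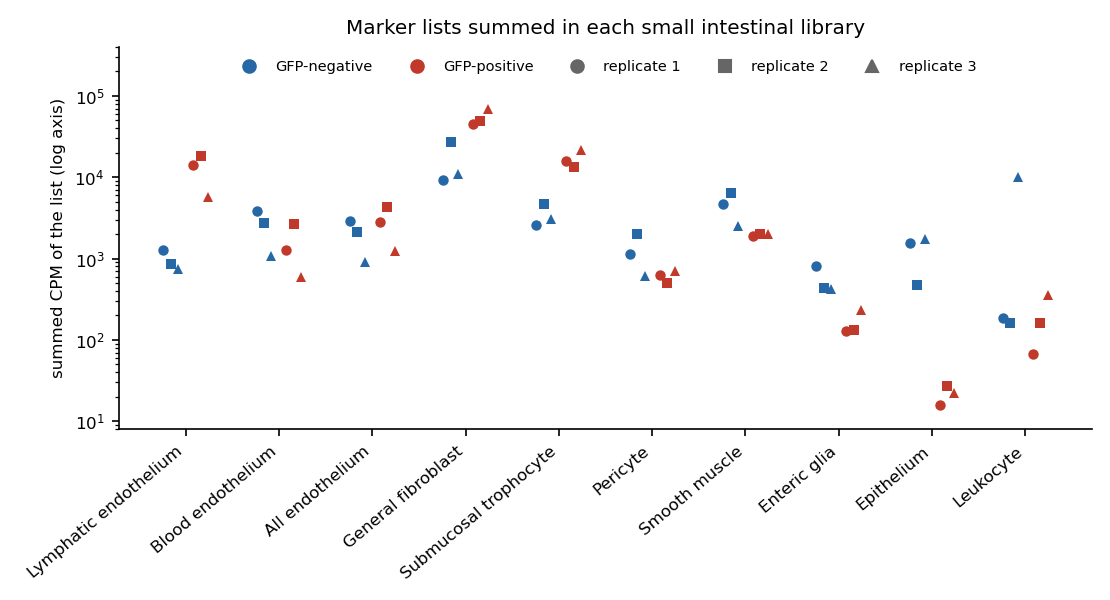
Summed CPM of 10 marker lists (vertical axis, log scale) in each small intestinal library, GFP-negative in blue and GFP-positive in red, with a symbol for each replicate number. Epithelial sums are far higher in the GFP-negative than in the GFP-positive libraries, GFP-negative replicate 3 stands apart in leukocyte genes, and GFP-positive replicate 3 has the lowest lymphatic and highest fibroblast sum of its sort.

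Chemokine genes were called in 9 of 18 cases, 3 higher and 6 lower (median -1.11). Cxcl13, which draws B cells, rose from 12.26, 31.3 and 27.8 CPM to 159, 62.8 and 184 CPM (2.51 ± 0.41, adjusted p = 0.00234), and Ccl21a and Ccl19, the ligands of CCR7, were the other rises. Ccl19 was low, at 1.08, 3.03 and 2.41 CPM against 17.5, 4.73 and 10.7 CPM, and its call ended with a replicate block (adjusted p = 0.107) and without GFP-negative replicates 1 or 3 or GFP-positive replicates 1 or 3 (0.100, 0.0676, 0.145 and 0.0685). Ccl25, a chemokine of small intestinal epithelium, fell from 35.3, 18.7 and 47.1 CPM to 4.41, 4.34 and 6.02 CPM, and Cx3cl1, fractalkine, from 16.7, 14.2 and 18.8 CPM to 6.49, 3.84 and 2.72 CPM (adjusted p = 0.00272 and 0.00255). The epithelial sums above moved with these falls, and their part was not tested. Without GFP-positive replicate 2 the list had 3 falls. Cxcl12, the ligand of CXCR4, overlapped at 297, 617 and 238 CPM against 402, 316 and 509 CPM, and so did the neutrophil chemokine Cxcl1.

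Atypical chemokine receptors, which bind chemokines without signalling through G proteins, were called in 5 of 6 cases, 3 higher and 2 lower. Ackr2, the scavenger of inflammatory chemokines in lymphatics, rose from 3.61, 0.731 and 0.965 CPM to 80.2, 85.6 and 25.2 CPM (5.15 ± 0.69, adjusted p = 0.00109). Ackr3, the scavenger of CXCL12, rose from 79.6, 105 and 67.2 CPM to 188, 235 and 145 CPM (1.17 ± 0.25, adjusted p = 0.00872), and Ackr4 is given above. Ackr1, the venular chemokine carrier, fell from 49.4, 28.3 and 11.9 CPM to 3.08, 1.08 and 7.32 CPM (-2.97 ± 0.67, adjusted p = 0.0139, 0.0615 without GFP-positive replicate 1). Pitpnm3 was the other fall and was not called without replicate 1 of either sort or GFP-positive replicate 2 (0.0606, 0.0526 and 0.0527), so that the list had none without GFP-positive replicate 1 and 1 without GFP-positive replicate 2. Lymphoid stromal genes followed no single direction: 4 of 10 rose and 2 fell. Il7, the lymphocyte survival factor, rose from 3.73, 2.09 and 1.45 CPM to 32.5, 27.7 and 10.7 CPM (3.27 ± 0.47, adjusted p = 0.00108). Madcam1, the mucosal addressin, fell from 68.2, 51.0 and 17.5 CPM to 1.25, 0 and 0 CPM (adjusted p = 0.0211), a call lost without GFP-negative replicate 1 or GFP-positive replicates 2 or 3 (0.0559, 0.0660 and 0.0632). Vcam1, an adhesion receptor for leukocytes, was the other fall (-1.03, adjusted p = 0.0369), lost without replicate 1 or 2 of either sort (0.120, 0.0797, 0.0536 and 0.113) and with a replicate block (adjusted p at the threshold). No fall was left without GFP-negative replicate 1 or GFP-positive replicate 2.

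Among cytokines and their receptors 4 of 19 rose and 2 fell (median 0.24). Lif, leukaemia inhibitory factor, rose from 8.66, 4.91 and 11.1 CPM to 46.8, 37.8 and 26.5 CPM (2.18 ± 0.31, adjusted p = 0.00102). Il4ra, the receptor chain for interleukins 4 and 13, was even within each sort and fell from 219, 216 and 186 CPM to 89.3, 102 and 65.7 CPM (-1.27 ± 0.18, adjusted p = 0.000923), but was not called with limma on the log2 TPM (-0.59, adjusted p = 0.191). Lifr, the receptor of LIF, fell from 481, 279 and 155 CPM to 118, 79.0 and 128 CPM (adjusted p = 0.0151, 0.0658 without GFP-positive replicate 2, which left 1 fall). Il6st, Osmr and Csf1 overlapped. Tslp, an epithelial and stromal alarmin, was low and called higher (0.481, 0.418 and 0 CPM against 4.08, 0.690 and 5.20 CPM, adjusted p = 0.0355), but not with a replicate block (0.125) nor without any 1 library other than GFP-positive replicate 2 (up to 0.0978). No gene of the MHC class II list was called among 9 tested (median -2.33), though their summed CPM was 187, 93.1 and 3914 in the negative and 83.7, 148 and 136 in the positive libraries, with GFP-negative replicate 3 again apart. Without GFP-negative replicate 2, 6 of them were called lower, and 1 without GFP-negative replicate 1.

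Complement components were higher as a group: 9 of 16 rose and 1 fell, with a median of 1.20. C3, the central component, measured 883, 1513 and 1129 CPM in the negative and 8591, 7379 and 11553 CPM in the positive libraries (2.96 ± 0.28, adjusted p = 0.000137). C7, of the membrane attack complex, was tight within each sort at 144, 200.1 and 159.8 CPM against 806, 749 and 1037 CPM (2.36 ± 0.20, adjusted p = 8.03e-05). Cfb, factor B of the alternative pathway, rose from 61.9, 84.6 and 60.1 CPM to 217, 227 and 356 CPM (1.95 ± 0.25, adjusted p = 0.000553). Cd55, decay-accelerating factor, rose by 1.27 ± 0.25, and Cd59a, which blocks the attack complex, fell by 3.23 ± 0.70 (adjusted p = 0.00627 and 0.0101), the latter not with a replicate block (0.0673). Without GFP-positive replicate 3 the rises numbered 5, and 2 genes were lower without any 1 of the GFP-negative libraries or GFP-positive replicate 2. In the list for egress and adhesion of leukocytes 2 of 17 genes rose and 3 fell (median 0.09). Plpp1, a lipid phosphatase, rose from 25.1, 40.003 and 22.2 CPM to 89.9, 78.1 and 88.4 CPM and Enpp2, autotaxin, which makes lysophosphatidic acid, from 46.3, 65.7 and 24.3 CPM to 121, 111 and 131 CPM (adjusted p = 0.00136 and 0.00970), and Selp, Vcam1 and Madcam1 were the falls, 1 of them left without GFP-positive replicate 2.

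Fibrillar and associated collagens rose in 8 of 18 cases and fell in 2 (median 0.81). Col1a1 measured 1568, 4945 and 1754 CPM against 8727, 9811 and 13216 CPM (1.94 ± 0.40, adjusted p = 0.00749), with GFP-negative replicate 2 well above its companions. Col8a1, a short-chain collagen, rose from 31.1, 21.1 and 12.54 CPM to 123, 107 and 198 CPM (2.72 ± 0.32, adjusted p = 0.000370). Col23a1, a transmembrane collagen, rose from 29.2, 53.3 and 16.6 CPM to 413, 707 and 197 CPM (3.73 ± 0.49, adjusted p = 0.000824). Its GFP-positive order, replicate 2 highest and 3 lowest, was that of Flt4, and a link between the genes was not tested. Col12a1, a fibril-associated collagen, fell from 583, 634 and 313 CPM to 89.5, 70.4 and 204 CPM (-2.07 ± 0.37, adjusted p = 0.00355). The collagen VI chains Col6a1, Col6a2 and Col6a3 overlapped. Without GFP-negative replicate 2 the number of collagens higher was 13.

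Basement membrane genes changed by chain. The laminin alpha chain genes Lama1, Lama3 and Lama5 fell, while Lama4, the alpha chain of vessels and mesenchyme, was called higher. Lama1 measured 51.7, 117 and 54.7 CPM against 9.40, 4.63 and 5.91 CPM (-3.48 ± 0.39, adjusted p = 0.000306). Lama3, a chain of epithelial laminin 332, measured 164, 53.3 and 32.3 CPM against 0.582, 0.690 and 0.236 CPM (-7.29 ± 0.89, adjusted p = 0.000669). Lama5 measured 157, 96.0 and 60.8 CPM against 12.7, 4.73 and 3.66 CPM (-3.87 ± 0.46, adjusted p = 0.000515). Lama4, at 429, 563 and 372 CPM against 835, 828 and 721 CPM (0.80 ± 0.20, adjusted p = 0.0205), lost its call without GFP-negative replicates 1 or 3 or GFP-positive replicates 1 or 2 (0.0515, 0.0593, 0.0633 and 0.0555). Nid1, the laminin linker nidogen, rose from 582, 712 and 511 CPM to 1032, 991 and 1309 CPM (0.88 ± 0.20, adjusted p = 0.0124). In all 3 of 22 basement membrane genes rose and 5 fell (median 0.24), and 8 rose without GFP-negative replicate 2. Col4a1, a collagen IV chain, Hspg2, perlecan, and Lamb1, a laminin chain, overlapped between the sorts. Lamb3 had no count in GFP-positive cells, at least 28.4-fold lower, and with Lama3 belongs to an epithelial laminin. The epithelial sums were also lower in every GFP-positive library. Among GFP-negative libraries they were highest in replicate 3, where Lama3 and Lama5 were lowest, and lowest in replicate 2, where Lama1 was highest. The part of epithelial transcripts in these falls was not tested.

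**Figure D5:**
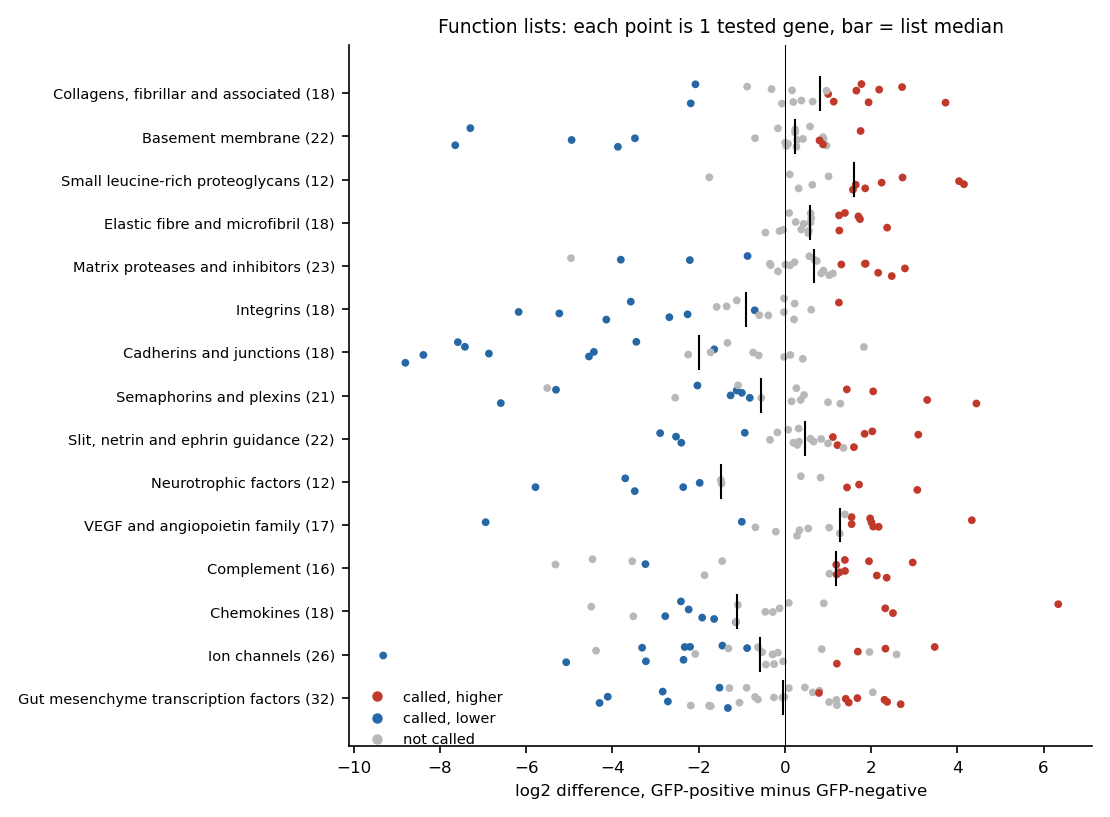
Log2 difference (horizontal axis, GFP-positive minus GFP-negative) of every tested gene in 15 function lists, with the number tested in brackets; red points were called higher, blue lower, grey not called, and the bar is the list median. Proteoglycan, complement and VEGF family medians lie right of 0, those of integrins, cadherins and neurotrophic genes left of 0, and guidance genes reach in both directions.

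Small leucine-rich proteoglycans, which organise collagen fibrils, rose in 7 of 12 cases without a fall, and the median was 1.61. Besides Dcn and Lum, Ogn (osteoglycin) rose from 84.0, 122 and 89.7 CPM to 341, 219 and 516 CPM and Ecm2 from 84.9, 94.6 and 60.9 CPM to 227, 210.2 and 282 CPM. Their differences were 1.86 ± 0.30 and 1.58 ± 0.24 (adjusted p = 0.00177 and 0.00157). Bgn, biglycan, overlapped at 684, 1507 and 659 CPM against 1003, 973 and 1582 CPM. Of 18 elastic fibre genes 6 rose, and 13 did when GFP-negative replicate 2 was left out (median 0.57). Lox, the crosslinking lysyl oxidase, rose from 43.3, 60.3 and 33.3 CPM to 172, 132 and 154 CPM (1.74 ± 0.27, adjusted p = 0.00162) and Fbn1, fibrillin 1, from 855, 1325 and 891 CPM to 2134, 1895 and 3346 CPM (1.26 ± 0.26, adjusted p = 0.00847). Eln, elastin itself, was not called (265, 380.4 and 149.9 CPM against 313, 402 and 485 CPM).

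Matricellular genes rose in 4 and fell in 2 of 20 cases (median 0.43). Tnxb, tenascin X, rose from 959, 2208 and 1037 CPM to 3953, 5527 and 4799.8 CPM (1.76 ± 0.31, adjusted p = 0.00351) and Spon1, spondin 1, from 163, 369 and 170.1 CPM to 657, 592 and 888 CPM (1.61 ± 0.30, adjusted p = 0.00470). Ccn2, the YAP target CTGF, fell from 151, 149 and 68.0 CPM to 44.3, 50.9 and 30.7 CPM (-1.54 ± 0.29, adjusted p = 0.00444). The rises numbered 2 without GFP-negative replicates 1 or 3 or GFP-positive replicate 3, and the falls 1 without GFP-negative replicates 1 or 2 or GFP-positive replicate 1. Matrix proteases and their inhibitors rose in 6 of 23 cases and fell in 3 (median 0.69), with 12 rises without GFP-negative replicate 2. Mmp3, stromelysin 1, rose from 16.2, 37.1 and 12.9 CPM to 160.1, 122 and 176 CPM (2.78 ± 0.34, adjusted p = 0.000484), and its relative Mmp10, stromelysin 2, fell from 152, 327 and 195 CPM to 22.5, 13.5 and 12.05 CPM (-3.80 ± 0.43, adjusted p = 0.000370). The groups of neither overlapped. Timp2, a protease inhibitor, rose from 322, 515 and 331 CPM to 854, 925 and 1117 CPM (1.31 ± 0.24, adjusted p = 0.00372), and Adamts9 fell by 2.20 ± 0.46 (adjusted p = 0.00996).

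Integrins fell in 7 of 18 cases and rose in 1 (median -0.91). Itgb4 and Itga6, which pair in hemidesmosomes, measured 168, 129.5 and 58.5 CPM against 1.41, 1.08 and 2.48 CPM and 164, 99.7 and 69.9 CPM against 22.9, 27.4 and 19.6 CPM. They fell by 6.17 ± 0.61 and 2.26 ± 0.34 (adjusted p = 0.000249 and 0.00148). Itga7, a laminin receptor of muscle, fell by 3.57 ± 0.59 and Itgb8, an activator of latent TGF-beta, by 2.68 ± 0.36 (adjusted p = 0.00220 and 0.000703). Itga4, the alpha chain of VLA-4 that leukocytes carry, measured 59.3, 31.0 and 312 CPM against 3.08, 0.788 and 6.97 CPM, highest in the GFP-negative library rich in leukocyte transcripts. Itgb1, the common beta chain, and Itga1, a collagen receptor chain, overlapped between the sorts. The single rise was the lymphatic chain Itga9, and there were 2 rises without GFP-negative replicate 2. Cadherins and junction genes fell in 9 of 18 cases and none rose (median -1.98), or 1 with a replicate block. Cdh2, N-cadherin, fell from 46.9, 33.3 and 18.97 CPM to 2.496, 1.38 and 0.236 CPM, Cdh6 from 22.7, 10.03 and 8.68 CPM to 0.832, 1.77 and 1.18 CPM, and Gja5, the arterial connexin 40, from 32.1, 21.9 and 8.04 CPM to 0.0832, 0 and 0 CPM. These fell by 4.54 ± 0.84, 3.44 ± 0.66 and 8.80 ± 1.35 (adjusted p = 0.00512, 0.00585 and 0.00166). Cdh5, VE-cadherin of both vessel types, and Gja1, connexin 43, overlapped. Without GFP-negative replicate 1 or GFP-positive replicate 1 the junction list had 5 falls. The integrin and junction lists hold genes of glia and epithelium, whose sums were also lower in every GFP-positive library, and their part here was not tested.

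Guidance cues of axons and vessels changed in both directions. Of 21 semaphorin and plexin genes 4 rose and 7 fell (median -0.55). Sema3a, Sema3c and Sema3d rose, Sema3c from 66.8, 95.4 and 78.3 CPM to 225, 116 and 311 CPM (1.44 ± 0.29, adjusted p = 0.00675), with Sema3d at 3.30 ± 0.31 (adjusted p = 0.000146) and Sema3a at 4.44 ± 0.47 (adjusted p = 0.000306). Sema3e and Sema3g, cues of blood vessels, fell from 21.4, 8.04 and 9.33 CPM to 0, 0.394 and 0.591 CPM and from 117, 74.5 and 22.7 CPM to 0, 1.97 and 0.236 CPM. Among slit, netrin and ephrin genes 6 of 22 rose and 4 fell (median 0.46). Slit2 and Slit3, ligands of ROBO receptors, rose from 31.7, 17.2 and 34.2 CPM to 114, 82.0 and 143 CPM and from 195, 321 and 239.9 CPM to 891, 571 and 1263 CPM (2.03 ± 0.39 and 1.85 ± 0.28, adjusted p = 0.00508 and 0.00136). Ntn1, netrin 1, rose from 166, 382 and 141 CPM to 578, 955 and 559 CPM (1.60 ± 0.34, adjusted p = 0.00937), and its receptor gene Unc5c fell from 26.7, 16.3 and 16.7 CPM to 6.99, 1.48 and 2.72 CPM (-2.40 ± 0.51, adjusted p = 0.00895). The Eph receptors Ephb1 and Epha4 parted, with 3.09 ± 0.61 and -2.52 ± 0.41 (adjusted p = 0.00623 and 0.00212).

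Transcription factors of gut mesenchyme were called in 13 of 32 cases, 7 higher and 6 lower (median -0.03). Foxp2 rose from 16.0, 11.4 and 6.91 CPM to 72.0, 37.3 and 69.5 CPM (2.37 ± 0.31, adjusted p = 0.000629) and Osr1, an odd-skipped factor, from 11.3, 17.9 and 10.6 CPM to 59.2, 41.8 and 97.3 CPM (2.31 ± 0.34, adjusted p = 0.00109). Its relative Osr2 fell from 2.65, 2.72 and 5.79 CPM to 0.166, 0.0985 and 0.354 CPM (-4.11 ± 0.79, adjusted p = 0.00528). The T-box factors Tbx2 and Tbx3 fell together, from 66.2, 112 and 47.1 CPM to 13.98, 7.39 and 13.0 CPM and from 98.3, 67.3 and 40.8 CPM to 12.7, 8.57 and 7.56 CPM. Meis2, a TALE homeodomain factor, rose by 1.48 ± 0.24 (adjusted p = 0.00209). Nkx2-3, which guides gut stroma and its vessels, was called lower (-1.32, adjusted p = 0.0280) but not with a replicate block (0.0651) nor without GFP-positive replicates 1 or 2 or GFP-negative replicate 2 (0.105, 0.0864 and 0.0544). Of 22 Hox genes, which mark position along the body, 1 rose, Hoxd9 (4.55% called, against 10.9% of all genes tested). Hoxd9 was not called without GFP-negative replicate 1 or GFP-positive replicate 2 (adjusted p = 0.0524 and 0.0574), while 3 Hox genes rose without GFP-negative replicate 2 and 2 with a replicate block.

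In the list of Sox, Ebf, Klf and nuclear receptor genes 4 of 29 rose and 3 fell (median 0.02). Esr1, the oestrogen receptor, was low and called lower (6.97, 8.36 and 5.15 CPM against 3.24, 0.690 and 0.709 CPM, adjusted p = 0.0250), but not without GFP-negative replicate 1 or GFP-positive replicates 2 or 3 (0.0515, 0.0843 and 0.0788). Klf4, a zinc finger factor, was called higher (1.22 ± 0.31, adjusted p = 0.0230) but not without GFP-negative replicate 3 or GFP-positive replicate 1 (0.0673 and 0.0990), when 2 genes of the list were higher. Of 11 retinoid genes 2 rose and 2 fell. Aldh1a3, which makes retinoic acid, fell from 287, 468 and 276 CPM to 92.3, 43.7 and 101 CPM, and Rdh10, the step before it, from 80.0, 156 and 83.0 CPM to 23.5, 16.0 and 31.3 CPM. Dhrs3, which reverses the RDH10 step, rose from 58.2, 66.4 and 47.3 CPM to 152, 199 and 114 CPM. The differences were -2.12 ± 0.35, -2.18 ± 0.33 and 1.43 ± 0.29 (adjusted p = 0.00215, 0.00136 and 0.00743). Aldh1a1, another retinal dehydrogenase, and Lrat, which stores retinol as esters, overlapped.

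Prostaglandin genes rose in 3 of 14 cases and fell in 3. Hpgd, which inactivates prostaglandins, rose from 16.1, 28.4 and 7.396 CPM to 151, 129 and 183 CPM (3.14 ± 0.38, adjusted p = 0.000515), and Ptgs1 (COX-1), which makes their precursor, fell from 59.6, 83.2 and 55.5 CPM to 14.9, 11.5 and 27.2 CPM (-1.89 ± 0.30, adjusted p = 0.00164). Slco2a1, the prostaglandin transporter, fell from 383, 214 and 121 CPM to 11.3, 11.4 and 6.496 CPM (-4.61 ± 0.64, adjusted p = 0.00136), and the receptor genes Ptgfr and Ptgir rose by 3.45 ± 0.63 and 1.80 ± 0.38 (adjusted p = 0.00376 and 0.00869). Ptgs2 (COX-2) overlapped at 86.9, 41.7 and 125 CPM against 97.3, 58.5 and 89.8 CPM. In lipid handling 2 of 20 genes rose and 6 fell (median -0.65), with no rise left without GFP-negative replicates 1 or 3 or GFP-positive replicates 1 or 2 and 1 without GFP-positive replicate 3. Fabp5, a fatty acid carrier, fell from 26.0, 27.5 and 23.2 CPM to 1.66, 3.15 and 2.24 CPM (-3.43 ± 0.52, adjusted p = 0.00136) and Apod, a lipocalin, from 32.2, 37.1 and 25.2 CPM to 8.98, 7.69 and 9.57 CPM (-1.85 ± 0.27, adjusted p = 0.00110).

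Among ion channels and purinergic receptors 4 of 26 rose and 9 fell (median -0.57). Piezo2, the mechanically gated channel of touch sensation, measured 28.7, 34.8 and 21.4 CPM in the negative and 312, 315 and 321 CPM in the positive libraries (3.48 ± 0.23, adjusted p = 1.53e-05), nearly the same in all 3 GFP-positive replicates. Kcnn3, a calcium-gated potassium channel, rose from 112, 163 and 81.0 CPM to 567, 652 and 574 CPM (2.33 ± 0.25, adjusted p = 0.000249). Kcnt2 rose too, from 5.05, 9.50 and 3.86 CPM to 22.3, 16.7 and 21.02 CPM. Cacna1h, a T-type calcium channel, fell from 44.1, 41.0 and 80.6 CPM to 10.4, 8.38 and 13.7 CPM (-2.35 ± 0.41, adjusted p = 0.00307), and P2rx1, an ATP-gated channel of smooth muscle, from 55.3, 48.8 and 27.7 CPM to 8.32, 2.37 and 3.31 CPM (-3.22 ± 0.56, adjusted p = 0.00479). Trpc6 fell from 6.13, 12.7 and 2.09 CPM to 0.0832, 0.493 and 0 CPM (adjusted p = 0.00743). The falls numbered 5 without GFP-negative replicate 1 and 4 without GFP-positive replicate 2, and the rises 7 with a replicate block. Receptors for transmitters and peptides were called in 6 of 24 cases, 3 in each direction, with 5 rises without GFP-negative replicate 2, 1 fall without GFP-positive replicate 3, and 6 rises and 1 fall with a replicate block. Adm, the vessel-active peptide adrenomedullin, rose from 8.78, 7.21 and 5.15 CPM to 46.3, 45.4 and 39.1 CPM (2.62 ± 0.33, adjusted p = 0.000553), and Edn1, endothelin 1, fell from 57.3, 29.2 and 15.8 CPM to 1.16, 0.197 and 0 CPM (-6.08 ± 1.15, adjusted p = 0.00688).

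Stress and proliferation genes were largely uncalled. Of 17 immediate early and stress genes Dusp1, a MAP kinase phosphatase, rose (422, 564 and 214 CPM against 1553, 1790.2 and 746 CPM, adjusted p = 0.0118), and none fell (5.88% called, against 10.9% of all genes tested, median 0.69). Fos, Egr1 and Jun overlapped, with replicate 3 the lowest of each sort. With a replicate block 6 rose and 1 fell, the rises including Fos, Jun and Egr1 at adjusted p = 0.0102, 0.0239 and 0.0219; 2 rose without GFP-positive replicate 3, and 1 fell without GFP-negative replicate 3. No cell cycle gene of 14 was called (median -1.04). Mki67, the proliferation antigen, measured 31.0, 12.32 and 279.6 CPM against 24.3, 18.3 and 12.6 CPM, high in the GFP-negative library that held leukocyte transcripts. Without GFP-negative replicates 1 and 2 in turn, 1 and 2 cell cycle genes were lower.

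Several of the genes with the largest changes belong to none of these lists. Chodl, a membrane lectin, measured 4.93, 4.91 and 1.29 CPM against 94.7, 33.8 and 128 CPM (4.49 ± 0.69, adjusted p = 0.00212). Dtx1, a ubiquitin ligase of the Notch pathway, rose from 7.94, 4.91 and 9.65 CPM to 179.9, 455 and 79.3 CPM and Lcn2, the siderophore-binding lipocalin, from 6.13, 3.13 and 1.61 CPM to 110.3, 192 and 46.2 CPM. Their differences were 5.001 ± 0.62 and 4.97 ± 0.69 (adjusted p = 0.000669 and 0.00136), and in both GFP-positive replicate 2 was the highest and replicate 3 the lowest, the order of Flt4. Adgrg3, an adhesion receptor (21.2, 7.21 and 6.75 CPM against 262, 431 and 108 CPM), and Cyp4b1, a cytochrome (21.2, 29.7 and 2.89 CPM against 306, 625 and 127 CPM), showed that order too. Chodl had the reverse, with replicate 3 highest and replicate 2 lowest, as in Grem1. With 3 libraries few orders are possible, and whether genes of the same order share a source was not tested. Among the falls, Adamdec1, a protease of subepithelial fibroblasts, went from 1592, 6078 and 2412 CPM to 310.2, 256 and 585 CPM (-3.13 ± 0.49, adjusted p = 0.00166). Epas1, the hypoxia factor HIF-2 alpha, went from 1113, 776 and 341 CPM to 73.8, 108 and 93.8 CPM (-3.02 ± 0.36, adjusted p = 0.000413). Chl1, a neural adhesion protein, went from 202, 70.0 and 86.0 CPM to 4.41, 0.591 and 0.827 CPM, and Pigr, the epithelial antibody transporter, from 235, 85.9 and 302 CPM to 0.416, 2.17 and 2.24 CPM.

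List counts depended on the fit. With the 6 small intestinal libraries alone and with limma on the log2 TPM, the lymphatic rises numbered 13 and 13, the trophocyte rises 6 and 7, the blood endothelial falls 8 and 10, the glial falls 10 and 10 and the epithelial falls 14 and 11, and all 3 R-spondins rose in both. For signal lists, in the same order, Wnt ligands had 3 and 3 rises, the VEGF family 4 and 4, FGF genes 1 and 1 falls, neurotrophic genes 2 and 3 falls, chemokines 2 and 3 falls, cytokines and receptors 3 and 2 rises and complement 4 and 7 rises. The IGF system had 1 and 1 rises, Frizzled and Lrp receptors 1 and 1 rises, and the receiving side of R-spondins 1 and 0 falls. Among matrix lists the rises were 3 and 6 for fibrillar collagens, 4 and 5 for proteoglycans, 2 and 3 for elastic fibres, 0 and 3 for matricellular genes, 4 and 5 for proteases and 0 and 0 for basement membrane, which had 4 and 2 falls. Integrins had 5 and 2 falls, junction genes 6 and 4 and semaphorins and plexins 2 and 1, while slit, netrin and ephrin genes had 3 and 4 rises and 1 and 2 falls. For gut mesenchyme transcription factors the rises were 4 and 4 and the falls 2 and 1, for the Sox to nuclear receptor list the rises 2 and 2, for lipid handling the falls 4 and 3, and for ion channels the rises 2 and 4 and the falls 5 and 3.

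The effect of GFP differed between small intestine and colon for 345 of the 16757 genes (2.06%), and for 218 of the 1821 called in the small intestine (12.0%), by the interaction test in the same fit. Without 1 of the 12 libraries that count ran from 67 (colon GFP-negative replicate 2) to 1057 (small intestinal GFP-negative replicate 2). Cxcl13 rose by 2.51 in the small intestine while its value in the colon was -3.01 (difference of differences, colon minus small intestine, -5.52 ± 0.60, adjusted p = 0.00230). Osr1, Fgf7 and Wnt2 also differed in this direction, at -4.17 ± 0.47, -3.35 ± 0.44 and -6.80 ± 0.84 (adjusted p = 0.00230, 0.00408 and 0.00311). All 4 kept this call without any 1 of the 12 libraries and with a replicate block. For Rspo3, Grem1, Ackr4 and Piezo2 no difference between the tissues was called, with values of 0.71 ± 0.55, -1.25 ± 0.52, -0.57 ± 0.36 and -0.52 ± 0.30 (adjusted p = 0.650, 0.280, 0.535 and 0.474), which does not show that the effects were alike.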

How the data were processed

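Bulk RNA of sorted Rspo3-GFP positive and negative stromal cells of the small intestine was compared, 3 libraries each. The values were deposited by the authors as estimated counts per gene, whole numbers made with Salmon 1.1.0 and R 3.6.1 on mm10 per the submitters' processing notes, and as log2(TPM + 1), which the authors scaled for gene length and library total. Salmon shares reads among similar transcripts, so values of close paralogs are uncertain, and the strandedness of the counting is not given in the sources used here. Groups and replicate numbers come from the sample titles.

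From the counts, CPM with TMM scaling and edgeR 4.0.16 (R 4.3.3) quasi-likelihood tests were computed over all 12 libraries with 4 group means, which share 1 estimate of the spread. Genes needed a minimum count of 10 in filterByExpr, which left 16757 of 32052, and p-values were adjusted by Benjamini and Hochberg over these genes with a threshold of 0.05. All edgeR standard errors are the size of the log2 difference over the square root of F. A fold against libraries all at 0 was bounded with 3 counts set over the group, a limit for counting error alone. Gene symbols were found for 32001 IDs in the reference annotation. Of 58 lists of genes, 821 genes were in the table and 758 were tested, and members and lists were chosen with earlier results of these data known. Named were the sort genes, per list up to 6 called genes in each direction by adjusted p and up to 3 uncalled genes of highest CPM (every R-spondin, BMP antagonist and lymphatic gene), the 15 largest called differences in each direction without overlap and averaging 4 or more on the log2 CPM scale, and the 10 largest CPM differences in each direction. Promoter windows are from RefSeq. Some genes that the rule allows are not reported here.

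Same-numbered libraries of the 2 sorts deviated together from their group means over the genes tested, with correlations of 0.323, 0.179 and 0.166 against -0.156 to -0.028 for other numbers. In the file headers replicate 3 of each sort has another prefix than replicates 1 and 2, and colon replicate 3 of each sort has that same prefix. The interaction test and the replicate block treated libraries of small intestine and colon as unrelated. Blocked values are given where they change a call. Alternatives were RLE scaling, no filter, DESeq2 1.42.0, the 6 libraries alone, a replicate block, each library left out, limma 3.58.1 on the log2 TPM and protein-coding genes alone. Where a sort is left with 2 libraries, these are assumed to vary like the other groups. The fit was tested on simulated counts.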

Additional observations from a re-analysis of the deposited data

Results flagged for a closer look

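For 35 of the genes named above the effect of GFP differed between colon and small intestine by the interaction test of edgeR's quasi-likelihood fit (adjusted p under 0.05 over 16757 genes). Values are colon minus small intestine on the log2 scale. Of genes that code for secreted signals, the difference was -6.80 for Wnt2, -3.05 for Wnt5a, -1.69 for Bmp4, -2.89 for Bmp5, -3.35 for Fgf7, -2.50 for Angpt1, -5.52 for Cxcl13, -2.06 for Cxcl12, -2.84 for Sema3a, -2.07 for Adm and -1.19 for Twsg1. Wnt5a was not called in the small intestine (0.17) and measured -2.88 in the colon. Bmp5 measured -1.35 and -4.24, and the first of these was not called.

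Receptors and surface proteins, the membrane-bound ligand Jag1 (2.75) among them, differed by -2.07 (Fzd7), -1.98 (Pdgfra), 2.43 (Notch1), 3.22 (Itga6), 3.47 (Itga7), 5.33 (Itgb4), 2.80 (Mcam), 4.84 (Dpp4), -5.81 (Chodl) and 6.14 (Pigr). The hemidesmosome chains Itgb4 and Itga6 fell in the small intestine (-6.17 and -2.26) and measured -0.85 and 0.97 in the colon. Matrix genes differed by -2.77 (Fbln1), -2.38 (Lum), -3.02 (Ogn), -2.20 (Lox), -2.35 (Mmp3), -2.82 (Spon1) and 6.63 (Lamb3). Ogn rose in the small intestine (1.86) and measured -1.16 in the colon. The transcription factors Osr1, Osr2 and Nr2f2 differed by -4.17, 4.91 and 1.99, and the lipid-related genes Hpgd, Enpp2 and Apod by -2.81, -1.92 and 1.88. Epithelial transcripts were left in both colon sorts: Pigr averaged 460 CPM in GFP-negative and 246 CPM in GFP-positive libraries there. In the small intestine it averaged 208 and 1.61 CPM. Of the epithelial list 7 of 19 genes differed between the tissues, against 2.06% of all genes tested. The part of epithelial transcripts in the differences of Pigr, Itgb4, Itga6 and Lamb3 was not tested.

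In 9 of the 35 (Cxcl13, Fgf7, Itga6, Itgb4, Ogn, Osr1, Spon1, Wnt2 and Wnt5a) the difference was called without any 1 of the 12 libraries, and in the other 26 it was not called in at least 1 of those fits. The libraries whose absence left the fewest of the 35 called were colon GFP-negative replicates 2 and 3, with 9 and 12. With a replicate block 9 were not called: Fzd7, Itga7, Lamb3, Cxcl12, Mmp3, Bmp4, Bmp5, Pdgfra and Twsg1 (adjusted p from 0.0616 to 0.154). With 3 libraries in each group, no sample of a group was tested for lying apart from the others.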

How the results depend on the processing

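Among 1821 genes called, no gene called under an alternative had the opposite sign. RLE scaling gave 679 genes higher and 1154 lower, no filter on low counts 670 and 1113, and protein-coding genes alone 753 and 1215. DESeq2 gave 995 and 1678, the 6 small intestinal libraries alone 244 and 528, and limma on the log2 TPM 343 and 328. The cause of these moves was not tested, other than that fewer libraries set the spread in the fit to 6. Without 1 library the genes higher ran from 520 to 1199, with the highest count without GFP-negative replicate 2, and the genes lower from 754 to 1416.

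The replicate block gave 852 higher and 1079 lower, of which 1506 were among the 1821. Of 264 genes named and tested, 201 were called, and 187 of those stayed called with the block, 168 in all 6 fits without a library, 138 in the fit to 6 libraries, 138 with limma and 201 with DESeq2. The block called 8 further named genes; beyond the changes given above it changed no other call of a named gene. Nog, a BMP antagonist not called in the comparison (-0.82), was called higher without GFP-negative replicate 2 (log2 5.35, adjusted p = 0.0363) and ranged from -1.40 to 5.35 over the fits without 1 library. Of 114 list counts in a direction, 47 moved by over 1.5 times in the fit to 6 libraries, 44 with limma, 24 with DESeq2, 23 with the block, 14 to 25 without 1 library, 10 without a filter, 10 for protein-coding genes and 2 with RLE scaling. The difference of the GFP effect between tissues was called for 345 genes, and its alternatives were chosen after seeing the data. The count was 361 with RLE scaling, 330 with a replicate block, 468 for protein-coding genes, 514 without a filter, 1095 with DESeq2, 160 with limma and 67 to 1057 without 1 of the 12 libraries. With 3 libraries in each sort and totals of 6489835 to 12286054 counts, genes under about 1 CPM rest on few counts, and a difference missing the threshold is not shown to be absent.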
